A study of Mus musculus and Homo sapiens with 20 samples.

Results

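Human chromosome 19 carries the densest collection of C2H2 zinc finger genes in the genome, and 240 of them were examined here for H2AK119ub, histone H2A monoubiquitinated at Lys119, in K562 cells. The 240 were every protein-coding gene of the GENCODE annotation of hg38 that lies on chromosome 19 and whose symbol is ZNF followed by a number, out of 20033 protein-coding genes in all. For comparison, 1236 other protein-coding genes lie on chromosome 19 and 236 genes named by the same pattern lie on other chromosomes. The rule used symbols and positions and no measured value.

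K562 is an established human line from a chronic myeloid leukaemia in blast crisis, with erythroid features. The cells were nucleofected with a control siRNA (siControl) or with an siRNA against MBD6 (siMBD6), all were grown in RPMI-1640 with serum and, per the labels, puromycin, and H2AK119ub was profiled by CUT&Tag, in which an antibody tethers a transposase to the modified histone. There were 2 libraries per group, labelled replicate 1 and 2, and nothing in the labels says that they came from separate cultures, so the spread between them may be technical. The other 16 samples of the series are mouse and were not used. MBD6 belongs to the methyl-CpG-binding-domain family and associates with the BAP1 deubiquitinase complex, which removes H2AK119ub, and the comparison asks whether less MBD6 leaves more of the mark.

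Polycomb repressive complex 1 places H2AK119ub, typically over CpG-rich promoters of silent developmental genes. C2H2 zinc finger proteins bind DNA through tandem finger units, each folded around a zinc ion by 2 cysteines and 2 histidines. Many of those on chromosome 19 also carry a KRAB domain, which recruits TRIM28 and the methyltransferase SETDB1 to silence retrotransposons with H3K9 trimethylation, a separate repressive mark that is also known to lie over the finger-coding 3′ ends of the zinc finger genes themselves.

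Each library was available as a list of called peak positions without heights or read counts, so depth was unknown and the measure was the percent of a window that lay under peaks. The lists held 91721 and 91776 peaks in siControl and 107166 and 110860 in siMBD6. They covered 132 Mb in each siControl library and 178 and 190 Mb in the siMBD6 libraries. Higher coverage in siMBD6 was therefore general, and the share of all genes that did the same is given beside each count. Whether depth differed between the lists was not tested. The lists hold no transcripts and so do not measure the knockdown. The promoter window of MBD6 itself was free of peaks in both siControl libraries and had 25% and 40.8% under peaks in siMBD6. Promoter windows carried a peak at 4 to 5 of 10 erythroid marker genes and at 4 of 5 lymphoid ones in each library. Among the erythroid regulators, KLF1 was covered over 94.1% to 100% of its promoter window.

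In every gene 3 windows were measured. The promoter window reached 1 kb to each side of the annotated start. This start was the first base of the gene over all its annotated transcripts, and whether K562 uses it was not tested. The gene span ran from the first to the last annotated base, and the 3′-most exon was the exon nearest the end of the gene. A tandem of fingers is coded almost without a break. Of 3004 finger motifs found in the translated genes, 97.7% lay in the last exon of the longest coding transcript and 77.4% in the 3′-most exon, which for 50 genes held no finger. The median gene held 12 fingers, from 1 in the smallest array to 36 in the longest.

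A KRAB motif was found in 198 of the 240 genes and not in 42. The motif was one of 2 patterns of conserved A-box residues, chosen by which genes it recovered. The patterns are permissive and also miss some genes annotated with a KRAB domain. The absence of a match says only that these residues were not found, so the genes without it are not a set without the domain. The sequences printed next are from covered and empty genes. For the promoters, covered refers to the whole promoter window, and the coverage of the printed stretch itself is not given. The first 4 are the 250 bases of hg38 before the annotated start, with every CG in capitals, of a gene with a promoter covered in all libraries (ZNF574), one covered in both siMBD6 libraries alone (ZNF566), one covered in both siControl libraries alone (ZNF383) and one never covered (ZNF91). They lie at chr19:42068227-42068476 (plus strand), chr19:36489903-36490152 (minus), chr19:37217676-37217925 (plus) and chr19:23395472-23395721 (minus).
ZNF574: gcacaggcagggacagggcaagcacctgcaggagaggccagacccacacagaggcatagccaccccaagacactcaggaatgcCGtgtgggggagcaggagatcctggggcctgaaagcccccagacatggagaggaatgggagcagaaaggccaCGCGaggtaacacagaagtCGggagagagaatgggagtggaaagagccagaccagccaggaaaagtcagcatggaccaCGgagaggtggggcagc
ZNF566: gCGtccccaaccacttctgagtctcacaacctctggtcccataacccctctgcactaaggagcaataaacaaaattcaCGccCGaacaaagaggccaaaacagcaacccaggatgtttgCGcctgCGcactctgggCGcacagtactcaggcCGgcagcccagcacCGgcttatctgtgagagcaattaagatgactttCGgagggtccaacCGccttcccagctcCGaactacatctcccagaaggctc
ZNF383: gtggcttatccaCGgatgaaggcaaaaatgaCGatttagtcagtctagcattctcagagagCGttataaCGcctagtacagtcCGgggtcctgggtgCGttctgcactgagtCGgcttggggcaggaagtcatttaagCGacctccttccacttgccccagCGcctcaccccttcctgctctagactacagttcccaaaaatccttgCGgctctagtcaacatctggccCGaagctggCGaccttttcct
ZNF91: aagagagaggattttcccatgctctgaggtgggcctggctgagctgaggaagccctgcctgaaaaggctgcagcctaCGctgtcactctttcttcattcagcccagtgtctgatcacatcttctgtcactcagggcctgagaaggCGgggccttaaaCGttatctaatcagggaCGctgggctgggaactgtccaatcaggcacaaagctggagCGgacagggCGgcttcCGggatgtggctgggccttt
The CG counts of these stretches were 5, 11, 12 and 7, against a median of 14 over the 240 genes and of 14 over the other chromosome 19 genes. At least 1 CG stood in 99.2% of the 240 stretches and in 98.6% of those of the other genes. The gene with the widest promoter coverage and the gene with none were both below the median.

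The next 6 are the first 3 finger units of ZNF446, whose fingers were under a peak in all 4 libraries, and of ZNF91, whose fingers were under none. Capitals mark the codons of the paired cysteines and histidines. The ZNF446 units lie on the plus strand at chr19:58480373-58480435, chr19:58480562-58480624 and chr19:58480646-58480708, and the ZNF91 units on the minus strand at chr19:23362283-23362351, chr19:23362115-23362177 and chr19:23362031-23362093.
ZNF446 finger 1: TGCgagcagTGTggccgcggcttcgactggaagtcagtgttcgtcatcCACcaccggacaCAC
ZNF446 finger 2: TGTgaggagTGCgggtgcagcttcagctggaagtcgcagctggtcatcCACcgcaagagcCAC
ZNF446 finger 3: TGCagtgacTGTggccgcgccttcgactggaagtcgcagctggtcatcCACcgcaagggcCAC
ZNF91 finger 1: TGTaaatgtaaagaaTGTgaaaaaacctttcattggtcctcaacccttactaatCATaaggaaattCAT
ZNF91 finger 2: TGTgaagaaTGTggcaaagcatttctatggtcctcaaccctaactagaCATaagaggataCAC
ZNF91 finger 3: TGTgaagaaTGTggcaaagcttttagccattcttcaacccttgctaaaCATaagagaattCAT
All 3 ZNF446 units were covered over 100% of their length in each of the 4 libraries. The 3 ZNF91 units had 0% in each.

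Most of the 240 genes had no H2AK119ub peak at all. In 138 genes (57.5%) neither the promoter window nor the gene span touched a peak in any library, against 9.06% of the other chromosome 19 genes and 33.2% of all protein-coding genes. Together the 240 genes span 7.36 Mb, 12.6% of the known sequence of the chromosome, and held between 1.16% and 1.46% of the chromosome's covered bases. Peaks covered 1.46% and 1.26% of these bases in siControl and 2.05% and 2.07% in siMBD6. Over the rest of the chromosome they covered 15.4% and 15.5% in siControl and 19.9% and 21.4% in siMBD6.

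The promoter window carried a peak in 49 and 52 of the 240 genes in the siControl libraries and in 54 and 59 in the siMBD6 libraries. This difference turned round, to 3 fewer genes in siMBD6 (-3), when the lists were cut in file order to the shortest length. File order followed peak width and the cut took peaks almost only from the siMBD6 lists, so it was not neutral to width. As a mean over genes, 6.17% and 6.99% of the window was covered in siControl and 8.65% and 8.02% in siMBD6. Over all protein-coding genes the same means were 15.2% and 15.9% in siControl and 19.9% and 20.5% in siMBD6. The ZNF genes of other chromosomes stood nearer to the chromosome 19 genes, at 7.5% and 7.63% in siControl and 11.1% and 12.3% in siMBD6. The other genes of chromosome 19 stood far above, at 30.7% to 39.6%. No test was made of these means, because the genes were chosen with earlier results of the data known.

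Gene bodies were emptier than promoters. The mean covered share of the gene span was 2.46% and 2.22% in siControl and 3.3% and 3.18% in siMBD6, and the median gene had 0% in every library. Over all protein-coding genes the means ran from 13.9% to 18.2%. The 3′-most exon, at 2%, 1.48%, 2.37% and 2.37% across the 4 libraries, carried a peak in 10 to 14 of the 240 genes. In the other chromosome 19 genes 31.2% to 40.5% of this exon was covered.

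**Figure D1:**
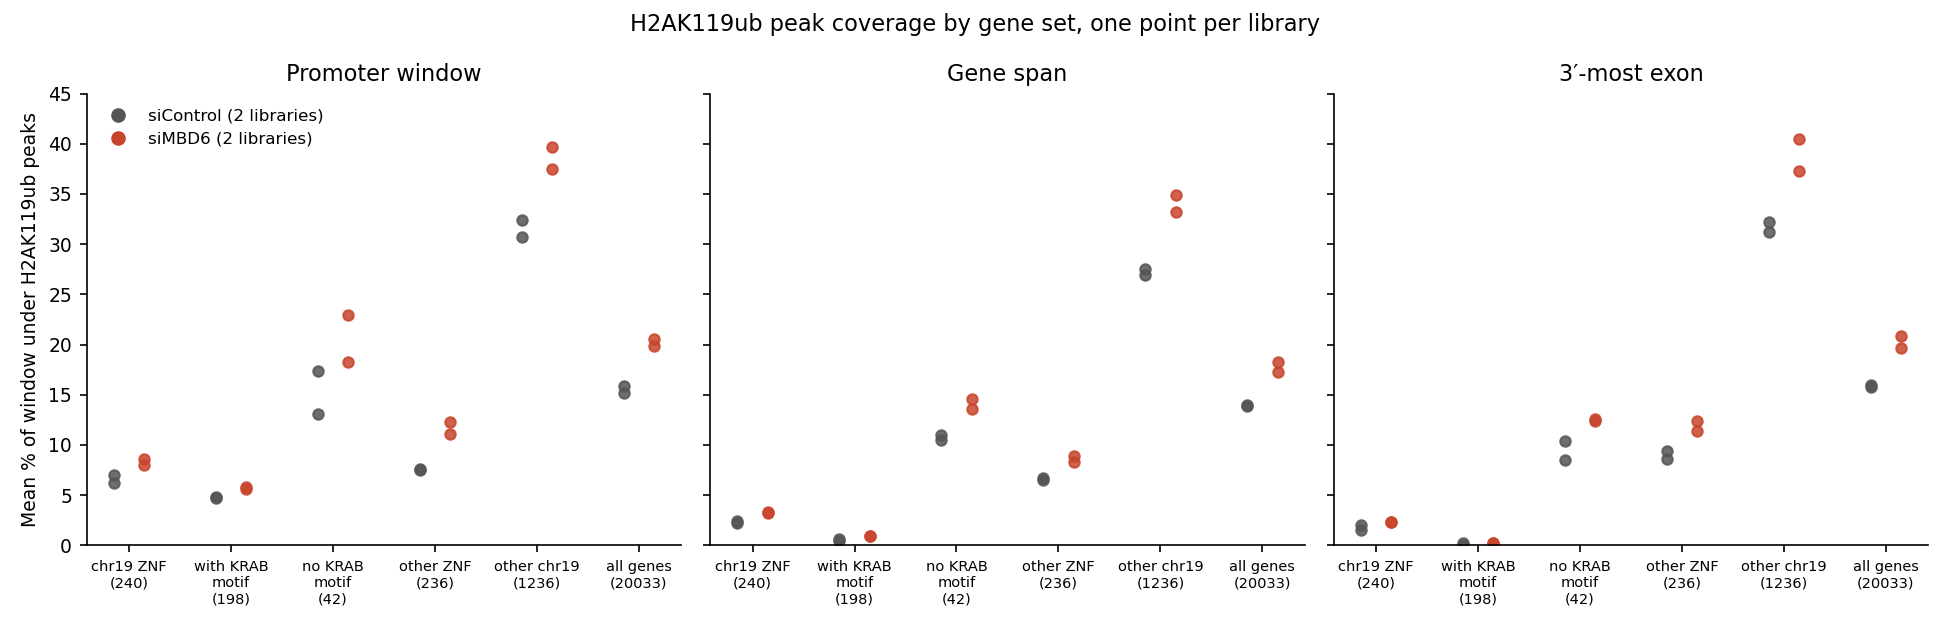
Mean percent of the promoter window, gene span and 3′-most exon under H2AK119ub peaks, with 1 point per library and the number of genes in each set in parentheses. The chromosome 19 ZNF genes lay below all protein-coding genes in every window and library, and those with a KRAB motif had a mean of at most 0.24% in the 3′-most exon.

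The genes with a KRAB motif accounted for most of the empty ones. Of the 198, 126 (63.6%) touched no peak in any library, against 12 of the 42 (28.6%) without the motif. Their mean promoter coverage was 4.71% and 4.8% in siControl and 5.62% and 5.85% in siMBD6. In the 42 genes without the motif it was 13.1% and 17.3% in siControl and 22.9% and 18.2% in siMBD6. The gene span showed a wider gap, with 0.47% to 0.97% covered in the genes with the motif and 10.5% to 14.6% in those without it.

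The finger-coding sequence itself was the emptiest. Among 2580 finger motifs of the genes with a KRAB motif that are not split by an intron, 0 lay under a peak in any of the 4 libraries. Among 420 in the genes without it, 15, 23, 15 and 28 did, in siControl replicates 1 and 2 and siMBD6 replicates 1 and 2, in 5 to 9 genes per library. Only 2 genes with the motif, ZNF578 and ZNF324, had a peak anywhere in the 3′-most exon. In ZNF324, 34.7% and 0% of that exon lay under peaks in siControl, and 33.1% and 46.7% in siMBD6. Its groups overlapped.

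Sequence copies bear on where reads can be placed, since the genes of this family arose by duplication and bowtie2 was run so that a read with several matches is placed at one of them. A median of 96.8% of the 50-base words in the 3′-most exons occurred once in the assembled chromosomes, and 1 of the 240 exons fell below 50%. The promoter windows had a median of 97.2%, with a lowest value of 65.5%. Promoter windows without a peak in any library had a median of 97.2% unique words, and those with a peak in every library 96.7%. The exons of genes with a KRAB motif had a median of 96%, and those of genes without it 100%. These values describe the reference sequence, and their part in the missing peaks was not tested further.

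In the genes with a KRAB motif, coverage was highest at the start. At the annotated start 11.6% and 12.6% of them lay under a peak in siControl and 13.6% and 16.2% in siMBD6, and 1 kb downstream of it 1% to 2.5% did. At 5 kb downstream it was 0% in every library. Peaks also touched the span outside the promoter window and 3′-most exon in 24 and 11 of the 198 in siControl and 22 and 24 in siMBD6. ZNF114, for example, had 0% of the promoter window covered in every library, and 13.1% and 2.86% of the span in siControl and 20.7% and 18.1% in siMBD6. Averaged over the 42 genes without the motif, coverage ran along the whole length, at 4.5% to 25.6% of each twentieth of the gene. Peaks touched 24 to 29 of these 42 spans per library, and 12 touched none in any library. The other chromosome 19 genes had both the peak at the start, at 35.8% to 46% of genes, and a broad level of coverage around it.

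**Figure D2:**
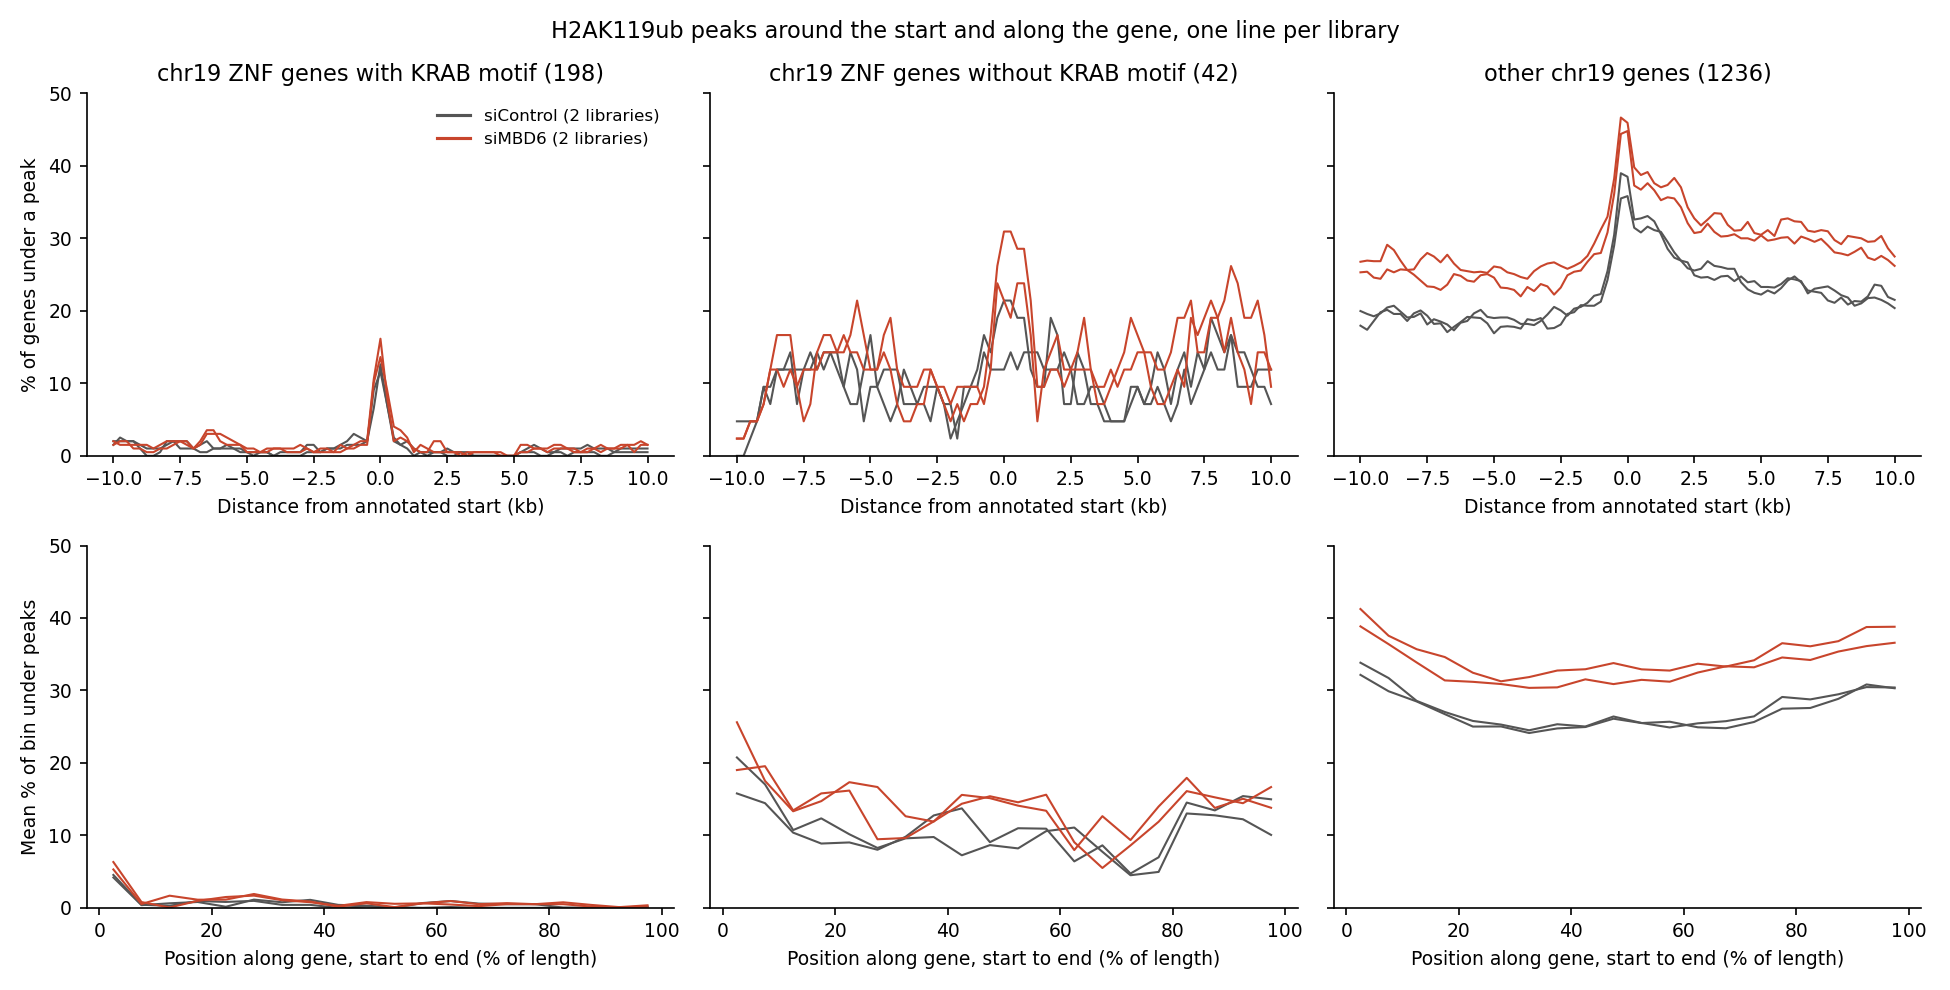
Percent of genes under a peak by distance from the annotated start in steps of 250 bp (top) and mean percent of each twentieth of the gene under peaks (bottom), with 1 line per library. In the genes with a KRAB motif the coverage was a narrow summit at the start, reaching 16.2% of genes at its highest, while the other chromosome 19 genes had a broad level on both sides of their summit.

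The peaks on these genes were small. Of the chromosome 19 peaks that touched the 240 gene spans, 38.9% to 51.5% per library had the most frequent width of the lists, 501 bp, against 25.2% to 32.3% of all chromosome 19 peaks. A single such peak inside the 2001-bp promoter window covers 25% of it, and this value recurs throughout. A step between 0% and 25% is therefore 1 peak called or not called.

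Covered and empty genes were unevenly spread along the chromosome, and most of the larger neighbourhoods held both. When the genes were divided wherever adjacent starts stood more than 1 Mb apart, 16 neighbourhoods resulted, from 1 to 57 genes each. The neighbourhood of ZNF91 and ZNF43, which runs from ZNF101 to ZNF254 (chr19:19668796-24129968) and holds 37 of the genes, was the largest stretch without peaks. In 35 of its 37 genes no gene span touched a peak, and 0.33% to 0.44% of its bases were covered per library. The exceptions were ZNF101 and ZNF431, each with a peak at the promoter in 3 of the 4 libraries.

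The neighbourhood from ZNF653 to ZNF791 (chr19:11483427-12640098, 25 genes, 21 with a KRAB motif) was covered more. Its promoter windows carried a peak in 13 and 15 genes in siControl and in 17 and 20 genes in siMBD6. Here 9 genes with the motif, among them ZNF823, ZNF441, ZNF563 and ZNF20, had a promoter peak in all 4 libraries. In the whole set only 23 genes did, 14 of them with the motif. Peaks touched 16 and 13 of its 25 gene spans in siControl and 19 and 20 in siMBD6, with mean span coverage of 2.52% in siControl and 4.31% in siMBD6.

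The neighbourhoods from ZNF175 to ZNF331 (39 genes, all with a KRAB motif) and from ZNF565 to ZNF573 (24 genes) had 3 to 5 and 2 promoter windows with a peak per library. The neighbourhood nearest the end of the long arm, from ZNF628 to ZNF446 (chr19:55476617-58481230, 57 genes), held both kinds. Its outermost genes, ZNF628 and its neighbours at the inner edge and ZNF497, ZNF837, ZNF584, ZNF132, ZNF324 and ZNF446 at the outer edge, were covered. In all, a peak touched 30 of its 57 spans in at least 1 library and 27 in none.

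**Figure D3:**
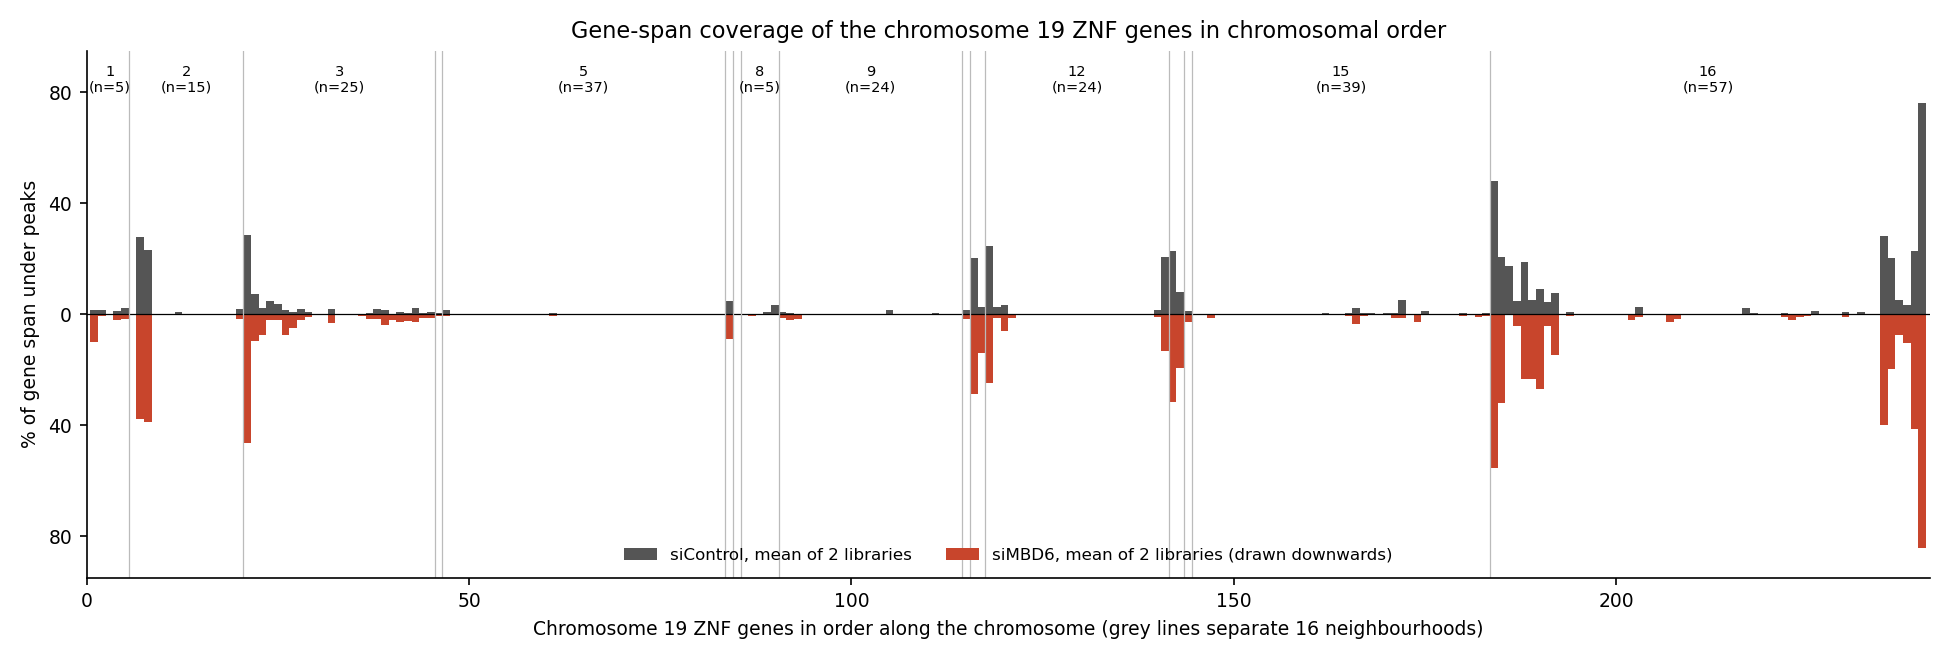
Percent of the gene span under H2AK119ub peaks for the 240 genes in their order along chromosome 19, with the siControl mean drawn upwards and the siMBD6 mean downwards, and grey lines between the 16 neighbourhoods. The tallest bars were ZNF446 and ZNF628, at the ends of the 16th neighbourhood, and the 5th, with 37 genes, was almost blank.

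Other genes close to the zinc finger genes were covered less than distant ones. Other chromosome 19 genes whose start lay within 25 kb of a ZNF start (92 genes) had 18.4% to 21.5% of the promoter window covered per library. Those 100 to 500 kb away (419 genes) had 33.6% to 43.3%. A promoter window that overlapped the window of a gene outside the set was found in 36 of the 240 genes, and 36.1% to 41.7% of these carried a peak per library, against 17.6% to 22.5% of the other 204. In those 36 the window cannot be assigned to either gene.

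Base composition moved with coverage. The promoter windows of the 240 genes had a median GC content of 52.2%, below the 58.1% of the other chromosome 19 genes. Windows of at most 45% GC (14 genes) had 0% covered in every library, and windows of 60 to 65% GC (12 genes) had 23.4% and 24.5% in siControl and 36.1% and 25.8% in siMBD6. Across the 240 genes the rank correlation of mean promoter coverage with GC content was 0.50, with gene length -0.31 and with finger number -0.10. With the ratio of observed to expected CG dinucleotides in the window it was 0.13. These describe genes that share the 4 libraries and often a neighbourhood. Within each GC class the 240 genes had lower means than the other chromosome 19 genes in every library.

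**Figure D4:**
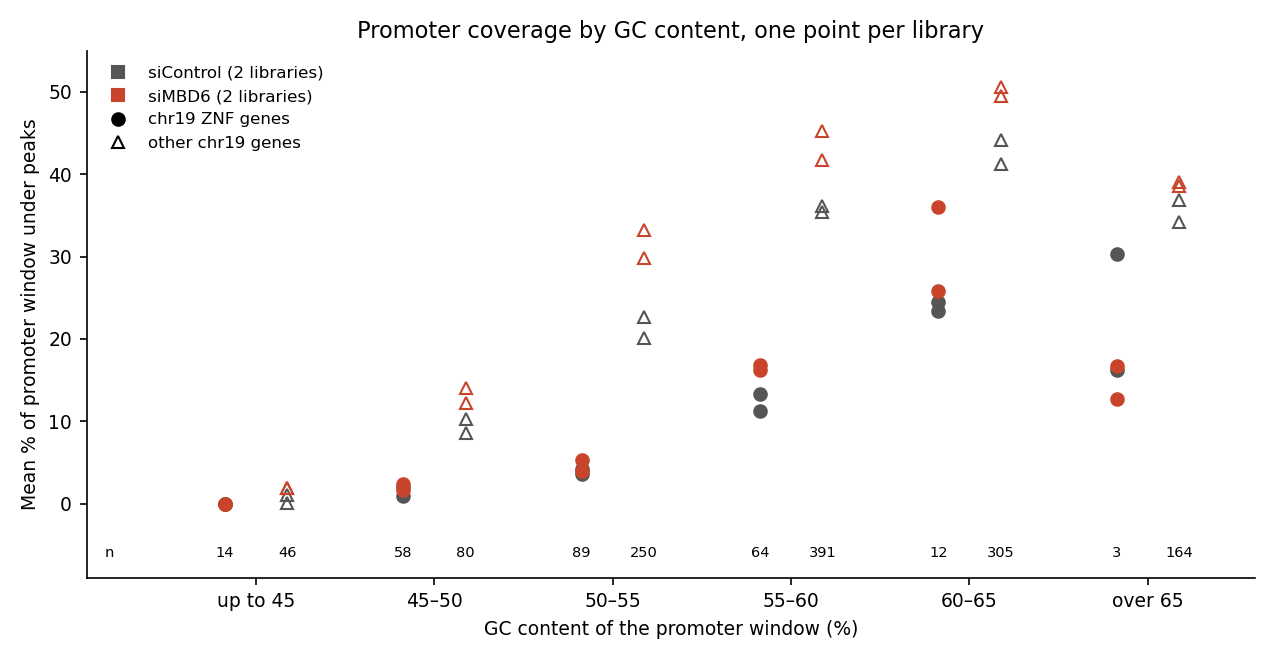
Mean percent of the promoter window under peaks by GC content of the window for the chromosome 19 ZNF genes (filled circles) and the other chromosome 19 genes (open triangles), with 1 point per library and the number of genes under each class. Both sets had higher coverage at higher GC up to 65%, and the ZNF genes stayed below in each class, with only 3 genes in the last.

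Coverage also differed between classes of finger number, without a steady order. The 13 genes with 1 to 5 fingers had mean span coverage of 15.8% in siControl and 22.5% in siMBD6, and the 105 genes with 11 to 15 fingers had 0.87% and 1.25%. The 52 genes with 16 to 36 fingers had 1.67% and 2.25%, and across the 240 genes the rank correlation of finger number with mean span coverage was -0.16. Only 3 of those 13 genes carried a KRAB motif, against 91 of the 105. Genes without the motif were shorter, with a median of 12.7 kb against 26.7 kb. The share of these properties in the difference was not tested.

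The gene span was covered over at least 10% on average in 18 genes, and 16 of them had no KRAB motif. ZNF446 (ENSG00000083838.17, chr19:58474017-58481230, 3 fingers) was the most covered, with 79.1% and 73.1% of the span in siControl and 82.2% and 86.1% in siMBD6. Of its 3′-most exon, 94.7% and 66.3% lay under peaks in siControl and 100% in both siMBD6 libraries. Both siMBD6 values lay above both siControl values in the promoter window, the span and the exon.

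ZNF628 (chr19:55476617-55484487, 16 fingers) had 60.4% and 91.4% of the promoter window covered in siControl and 100% in both siMBD6 libraries. Its span did not separate the groups, at 42.4% and 53.8% against 70.4% and 40.7%. The 3′-most exon was lower in siMBD6, at 30.3% and 27.9% against 36.1% and 49.5%. In this gene the start and the end thus stood in opposite order.

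ZNF574 (chr19:42068477-42081552, 18 fingers), whose promoter sequence is printed above, had 96.9% and 93% of the promoter window under peaks in siControl, and 94.5% and 100% in siMBD6. Those values overlapped, while its span was higher in both siMBD6 libraries, at 27.4% and 29.8% against 15.9% and 24.3%. ZNF584, with 66.2%, 53.8%, 60.2% and 38.2% of the promoter window across the libraries in the order siControl 1 and 2, siMBD6 1 and 2, and ZNF575, with 50.6%, 56.5%, 60% and 32.6%, also overlapped. ZNF584 was the KRAB-motif gene with the widest promoter coverage in siControl.

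The comparison of siMBD6 with siControl was made gene by gene as the number of genes whose 2 siMBD6 values both lay above or both lay below the 2 siControl values. With 2 libraries against 2, an exact permutation test, two-sided, has 6 ways to assign the libraries and cannot give a p below 0.333, so no single gene could pass 0.05, and each gene described below as separated has exactly that p.

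In the promoter window 13 of the 240 genes were higher in both siMBD6 libraries (5.42%), where 13.4% of all protein-coding genes were, and 5 were lower (2.08%), where 2.2% of all genes were. Higher coverage was thus found in a smaller share of these genes than of all genes, and lower coverage in about the same share. Since 157 of the 240 had no promoter peak in any library, most could not be counted either way. Over all genes 49.2% had none. Among windows with a peak in any library, 13 of 83 were higher, beside 2684 of 10173 over all genes. Lower were 5 of 83, beside 440 of 10173. Of the 13, 6 had a KRAB motif.

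ZNF440 (chr19:11814273-11835216) had the widest difference, with 25% and 0% of the promoter window covered in siControl and 73.2% and 71.1% in siMBD6, 59.6 percentage points between the means. In ZNF446 the promoter values were 38.5% and 0% for siControl, and 63.4% and 71.1% for siMBD6. ZNF566 had 0% in both siControl libraries and 33.5% and 44.5% in siMBD6, and a difference of 0 when only peaks of at least 1 kb were used. ZNF414, a gene with 3 fingers, had 0% and 4.55% against 44.6% and 35.3%. These were the 4 largest differences among the 13.

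Among the 5 lower promoter windows, ZNF383 (chr19:37217926-37248740) had 32.8% and 25% covered in siControl and 0% in both siMBD6 libraries. ZNF816 had 52.2% and 34.2% against 31.5% and 0%, and ZNF358 had 34.4% and 39.1% against 0% and 25%. With peaks of at least 1 kb only, the differences of ZNF383 and ZNF358 were 0. ZNF441 (42% and 41.4% against 31.5% and 33.5%) and ZNF296 had a peak in every library. The lower siControl value of ZNF296, 29.3%, stood close to its higher siMBD6 value, 27.3%. The gene span of ZNF358 stood in the opposite order to its promoter window. It had 25.5% and 30% covered in siControl and 37.2% and 38.4% in siMBD6.

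Under the stricter rule of a peak in both libraries of one group and in neither of the other, 5 genes carried a promoter peak in siMBD6 alone (ZNF283, ZNF490, ZNF536, ZNF552 and ZNF566), and 3.22% of all genes did, which stands beside 2.08% of the 240. ZNF383 was the single gene with a promoter peak in siControl alone, 0.417% of the 240 beside 0.384% of all genes. In ZNF283, ZNF536 and ZNF552 the coverage was 25% in both siMBD6 libraries, a single 501-bp peak. ZNF536, a zinc finger gene of the nervous system and the longest of the 240 at 489 kb, is the only one of the 5 in a neighbourhood of its own.

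**Figure D5:**
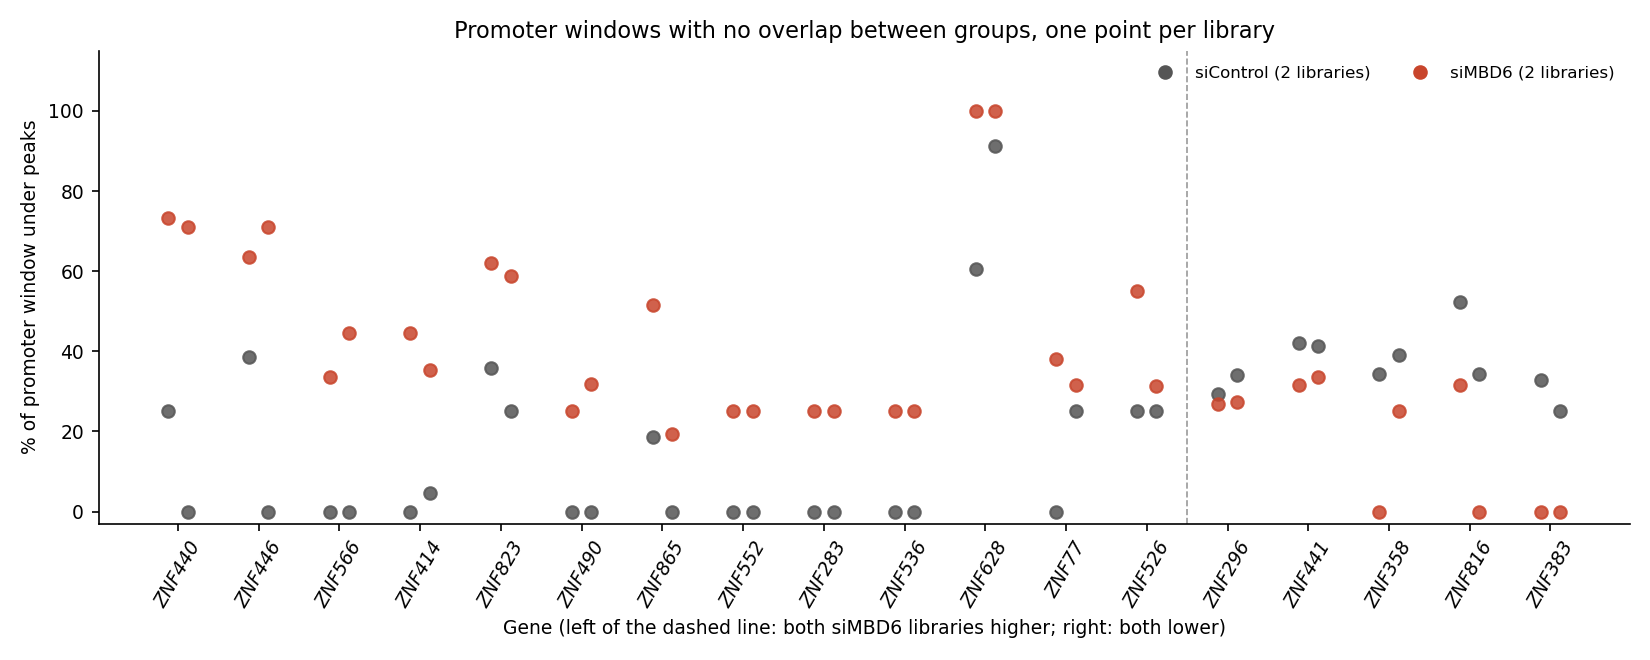
Percent of the promoter window under H2AK119ub peaks in each of the 4 libraries for the 13 genes with both siMBD6 values above both siControl values (left of the dashed line) and the 5 with both below (right). ZNF440 showed the widest gap, and several genes differ by the 25% that 1 peak of 501 bp covers.

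Over the gene span 31 of the 240 genes were higher in both siMBD6 libraries (12.9%), where 34.6% of all genes were, and 7 were lower (2.92%), where 1.28% of all genes were. Spans without a peak in any library, 141 of the 240, could not be counted either way. The 4 largest differences of the higher ones were ZNF324, ZNF580, ZNF653 and ZNF581. ZNF324 had 28.9% and 17% in siControl and 35.3% and 47.5% in siMBD6, and ZNF653 had 30.1% and 27.1% against 48.7% and 44.4%. ZNF580 (10.5% and 0% against 31% and 15.8%) and ZNF581 (9.86% and 8.39% against 39% and 14.6%) overlap one another on the plus strand and share peaks. The 3′ end of ZNF324 also overlaps the start of ZNF446 on the same strand. The span and 3′-most exon of ZNF324 thus share bases with the promoter window of ZNF446, and their values are not independent.

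ZNF524 had the largest difference among the 7 lower spans, with 16.1% and 18.4% in siControl and 0.55% and 0% in siMBD6. ZNF296 (15.6% and 25.6% against 13.1% and 13.4%) and ZNF816 (5.19% and 5.06% against 2.48% and 0%) were the next, and that of ZNF296 was 0 with peaks of at least 1 kb only. ZNF524 is the shortest of the 240 genes, at 3.12 kb.

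In the 3′-most exon 6 genes were higher in both siMBD6 libraries (2.5%), where 9.01% of all genes were, and 2 were lower (0.833%), where 1% of all genes were. Among exons with a peak in any library, 6 of 18 were higher, beside 1804 of 7164 over all genes. Lower were 2 of 18, beside 201 of 7164. Over all genes 64.2% of exons had no peak in any library. Of the 240 exons, 222 had no peak in any library and could not be counted either way. Among these were the exons of 196 of the 198 genes with a KRAB motif, and none of the 8 had the motif. ZNF653, with 0% in both siControl libraries and 100% and 10.9% in siMBD6, had the largest difference and the widest disagreement between replicates. ZNF541 had 65% and 76% in siControl and 100% in both siMBD6 libraries, and ZNF580 had 39.9% and 0% against 45.8% and 49.1%. ZNF524, at 37.9% and 17.9% against 0% in both siMBD6 libraries, and ZNF628 were the lower ones, and the difference of ZNF524 was 0 with peaks of at least 1 kb only.

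The difference between the groups on the log2 scale of the mean coverage was 0.34 in the promoter window, 0.47 in the span and 0.44 in the 3′-most exon of the 240 genes, and 0.38, 0.35 and 0.36 over all protein-coding genes. The excess of the 240 over all genes was -0.04, 0.12 and 0.11. It was computed from the mean of the log2 values of single libraries and need not equal a subtraction of the values above. Its spread between replicates was 0.10, 0.10 and 0.23. The excess was within that spread in the promoter window and the exon and slightly larger than it in the span.

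Of 10 zinc finger genes chosen for their known roles, 7 had no peak in the promoter window, span or 3′-most exon in any library. Each of the 10 had a KRAB motif. Neither promoter window nor span touched a peak in 57.5% of the 240 genes and in 63.6% of those with the motif. ZNF91 and ZNF93, which repress SVA and LINE-1 retrotransposons, were among them, with ZNF43, ZNF420, ZNF175, ZNF304 and ZNF154. ZNF304 is a KRAB protein linked to gene silencing in colorectal cancer, and ZNF154 is a gene often methylated in tumours. ZNF224 had 25% of the promoter window covered in siControl replicate 1 and 0% in the other 3 libraries. ZNF274, which binds the 3′ ends of other zinc finger genes, had 22% in siControl replicate 2 and 0% elsewhere. ZNF331, an imprinted gene, had 0.82% and 1.14% of its span covered in replicate 1 of siControl and of siMBD6 and 0% in replicate 2 of each.

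Genes of the partners of the KRAB domain carried a peak more often in the promoter window than in the 3′-most exon, as all genes did. Of 16 co-repressor genes, 3 and 5 had a peak in the promoter window in siControl and 6 and 5 in siMBD6. Over all protein-coding genes 33.8% and 34.8% did in siControl, and 40.9% and 42% in siMBD6. Of the 16, 2 were higher there in both siMBD6 libraries, beside 13.4% of all genes. The 1 that was lower stands beside 2.2% of all genes. TRIM28, which lies on chromosome 19 and bridges KRAB domains to SETDB1 and heterochromatin protein 1, had 25% in both siControl libraries and 31.5% and 31.4% in siMBD6. CBX5, which codes for a heterochromatin protein 1, had 0% in siControl and 25% in both siMBD6 libraries, and CHD3, a remodelling enzyme, was lower, with 7.15% and 15.8% against 4.15% and 6.3%. SETDB1, ATF7IP, EHMT2, MPHOSPH8 and TASOR, from the H3K9 methylation and HUSH machinery, had no promoter peak in any library. The 3′-most exon carried a peak in 0 of the 16 in each library except siMBD6 replicate 2, where TRIM28 did. Over all genes 25.2% to 30.5% of these exons did per library. Over the span, 5 of the 16 were higher in both siMBD6 libraries, where 34.6% of all genes were, and 0 were lower, where 1.28% of all genes were.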

How the data were processed

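H2AK119ub CUT&Tag peak lists of 4 K562 libraries were used as deposited. The methods and processing notes of the authors name Trimmomatic (v.0.39), bowtie2 (v.2.4.1) against hg38 with Drosophila spike-in DNA, removal of duplicates with Picard, MACS2 in broad mode and HOMER (v.4.9). Which caller made the lists is not given in the sources used here. The lists hold positions and no counts, so that spike-in scaling is not carried and depth per sample is unknown.

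Peaks of each library were merged, and the percent of each window under peaks was computed (pandas 2.3.3 and numpy 2.4.6, Python 3.11.15) over 20033 protein-coding genes of GENCODE release 44. Promoter bases and translated proteins were read from hg38. Finger motifs were paired cysteines separated by 2 to 4 residues, 12 residues further, and paired histidines separated by 3 to 5. On simulated peaks, 20 of 20 planted higher and 20 of 20 planted lower promoter windows of the 240 genes were recovered. This checks the calculation only. Genes were named by rule: 10 chosen by known role and, for each window, the 4 most covered in siControl, the 4 largest higher and the 3 largest lower differences among separated genes. Others named in the text were chosen after their values were seen. The members, gene lists and comparisons were chosen with earlier results of these data known. Alternatives were peak width, joining, list length, window, exon, weighting, leaving out each library and the replicate block.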

Additional observations from a re-analysis of the deposited data

How the results depend on the processing

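With 2 libraries per group and no read depth, list length and coverage cannot be told apart, and no gene-level test can pass a threshold. Of 199 recomputed values and counts over the 240 genes, 139 stayed within the replicate spread or within 1.5 times the count. Of the 20 differences of single named genes, 15 kept their sign under each alternative run, and 5 were 0 with peaks of at least 1 kb only (the promoters of ZNF358, ZNF383 and ZNF566, the span of ZNF296 and the exon of ZNF524).

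The number of genes with a promoter peak was 6 higher in siMBD6. It turned to 3 lower (-3) when each list was limited to the shortest in file order. It was -8.5 with the widest peaks instead, a setting chosen after seeing the data. File order followed peak width, so both settings selected by width, and both took peaks almost only from the siMBD6 lists. The same 2 settings gave a promoter difference of 0.819 and 0.33 points (main 1.75), a span difference of 0.702 and 0.623 points (main 0.898), 2 and 2 promoters with a peak in siMBD6 alone and 4 and 5 with one in siControl alone. The widest peaks gave 8 lower promoters and a promoter log2 excess over all genes of -0.265.

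With peaks of at least 1 kb only, the group difference was 1 gene with a promoter peak and 0.967 points of promoter coverage. The mean coverage of the 240 genes was then 18.4%, 11.6% and 8.59% of the mean over all genes in the promoter window, span and 3′-most exon, against 41.8%, 17.5% and 11.3% with all peaks. The log2 excess was 0.129, 0.384 and 0.463. Promoters were higher in 4 and lower in 0 genes, spans higher in 11 and lower in 0, exons lower in 1, and 2 promoters had a peak in siMBD6 alone and 0 in siControl alone. The fewer peaks in that setting are its own construction.

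A promoter window of 2 kb each side gave a difference of 0.848 points and 29.8% of the mean over all genes. With 50% of the window required, 3 promoters had a peak in siMBD6 alone and 0 in siControl alone. Summing bases gave a span difference of 0.713 points and 22.8% of the mean over all genes, and an exon difference of 0.348 points and 8.64%. The span without promoter window and 3′-most exon gave 16.1%. Requiring group means 5 points apart left 16 higher and 2 lower spans. Elsewhere the cause of the differences was not tested.

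The replicate block, higher in both same-numbered pairs, gave 23 higher promoters (13 without it) and moved no other value beyond the limits above. The labels do not say that numbers pair libraries, and over all genes the deviations of same-numbered libraries correlated at 0.013 to 0.039 in the 3 windows. Over the 240 genes they correlated at 0.13 in the promoter window, -0.14 in the span and -0.11 in the exon. With crossed numbers, chosen after seeing the data, the block gave 15 higher and 7 lower promoters, 33 and 8 spans and 7 and 2 exons.

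Each of the 4 libraries, when left out, raised the count of higher promoters by over 1.5 times, since 1 value fewer had to be separated. Leaving out 1 library in turn gave differences of 3.5 to 8.5 genes with a promoter peak and of 1.34 to 2.16 points in the promoter window, 0.777 to 1.02 in the span and 0.37 to 0.885 in the exon. The percent of the mean over all genes was 41 to 42.7, 17 to 18.1 and 10.9 to 12, and the log2 excess was -0.115 to 0.0422, 0.0396 to 0.199 and -0.117 to 0.328. Counts of higher and lower genes were 21 to 30 and 10 to 20 for promoters, 37 to 45 and 12 to 26 for spans, and 6 to 11 and 3 to 3 for exons, with 9 to 14 promoters with a peak in siMBD6 alone and 4 to 8 in siControl alone.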
